A study of Mus musculus with 10 samples.

Results

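The collagen genes of the mouse were followed in muscle tissue and in a muscle cell line. Both carried Fv2E-PERK, in which the stress kinase PERK is joined to a domain that dimerizes upon binding the compound AP20187. Members were all genes whose symbol reads Col, a number, the letter a and a number, and which a gene probe of the array reached through its RefSeq accession. The 42 members had 61 probes, out of 19752 gene symbols with 26056 probes, and 28 members had 1 probe while 14 had several. The annotation lists 44 such symbols, and Col6a3 and Col12a1 were not analysed here.

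RNA was measured on single-colour Agilent arrays in 10 samples, 2 in each of 5 groups. The muscle samples came from male C57BL/6J mice, whose age the labels leave out: hSA::Fv2E-PERK transgenic mice 12 h after an injection of AP20187 at 1 ng/g, mice of the same transgenic line 12 h after vehicle, and wild type mice that received no injection. In the transgenic mice the fusion is driven by a skeletal actin promoter. The C2C12 samples were cells of a mouse myoblast line carrying Fv2E-PERK, kept for 3 days in 2% horse serum and then for 12 h with 100 nM AP20187 or with vehicle. The labels do not say whether the 2 samples of a group came from separate animals or cultures, so that the p-values measure only the spread between these samples, which may be technical. The number of arrays limits the precision.

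All 14 markers of skeletal muscle fibres were well above background on at least 1 array of each muscle group and of C2C12 vehicle cells, and 13 after AP20187 in C2C12. Gene spots well above background made up 41.0% to 53.1% per array. The 4 transgenic muscle arrays lay in 1 scan session, the wild type arrays in another on another slide, and the C2C12 arrays in a session of another day. Slide and group therefore cannot be told apart between transgenic vehicle and wild type muscle, nor scan day and material between C2C12 and muscle.

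Collagens are secreted proteins made of 3 chains wound into a triple helix. Types I, II, III, V, XI, XXIV and XXVII form fibrils, type IV forms the network of basement membranes, and the rest link fibrils, anchor membranes, span the cell membrane or form other networks. In skeletal muscle the fibrils lie in the connective tissue around fibres and in tendon, and a basement membrane with type IV collagen wraps each fibre. The chains are hydroxylated, folded and glycosylated in the endoplasmic reticulum, the compartment whose folding state PERK senses. Fibroblasts are the main source of fibrillar collagen in muscle.

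Col4a1 and Col4a2, the 2 commonest basement membrane chains, lie head to head and share their promoter, and are shown for that reason. Col7a1, the type VII chain of anchoring fibrils, had the largest difference between transgenic vehicle and wild type muscle. Col8a2, a short chain network collagen, passed the test for AP20187 in muscle. The sequences are from RefSeq on GRCm38.p6, 250 bases before to 50 after the gene start, on the gene's strand from 5′ to 3′, with CCAAT and GGGCGG on either strand in capitals. They cover chr8:11312777-11313076 on the minus strand (Col4a1), chr8:11312555-11312854 on the plus strand (Col4a2), chr9:108953336-108953635 on the plus strand (Col7a1) and chr4:126286544-126286843 on the plus strand (Col8a2).
Col4a1: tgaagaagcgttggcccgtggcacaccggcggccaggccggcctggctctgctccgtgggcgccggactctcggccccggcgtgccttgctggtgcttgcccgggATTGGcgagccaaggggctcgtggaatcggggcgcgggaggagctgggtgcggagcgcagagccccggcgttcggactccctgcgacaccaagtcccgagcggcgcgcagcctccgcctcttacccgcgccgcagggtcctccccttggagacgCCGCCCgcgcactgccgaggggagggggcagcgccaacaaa
Col4a2: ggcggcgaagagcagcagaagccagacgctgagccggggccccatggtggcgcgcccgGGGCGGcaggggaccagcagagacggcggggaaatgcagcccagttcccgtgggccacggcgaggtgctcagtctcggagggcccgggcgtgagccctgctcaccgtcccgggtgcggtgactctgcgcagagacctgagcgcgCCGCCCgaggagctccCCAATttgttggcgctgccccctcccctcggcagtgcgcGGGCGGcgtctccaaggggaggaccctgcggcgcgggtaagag
Col7a1: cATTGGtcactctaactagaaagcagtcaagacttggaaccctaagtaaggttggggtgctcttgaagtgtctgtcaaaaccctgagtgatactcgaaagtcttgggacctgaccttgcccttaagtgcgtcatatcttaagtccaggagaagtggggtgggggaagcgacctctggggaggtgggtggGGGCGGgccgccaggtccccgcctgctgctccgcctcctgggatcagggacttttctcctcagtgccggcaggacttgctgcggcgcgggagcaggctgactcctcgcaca
Col8a2: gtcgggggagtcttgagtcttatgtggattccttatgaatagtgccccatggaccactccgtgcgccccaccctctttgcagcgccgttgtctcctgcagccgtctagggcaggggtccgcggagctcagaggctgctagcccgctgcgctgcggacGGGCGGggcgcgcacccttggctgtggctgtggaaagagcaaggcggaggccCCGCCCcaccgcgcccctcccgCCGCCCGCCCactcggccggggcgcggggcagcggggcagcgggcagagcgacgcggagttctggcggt

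The annotated starts of Col4a1 and Col4a2 lay 21 bases apart, with each gene running across the start of the other. Their windows overlapped over 78 bases from chr8:11312777-11312854, of which 73.1% were G or C. That overlap holds a GGGCGG that lies between the starts, downstream of each. Of the 42 members, 34 had a promoter in the RefSeq table, with 37 entries in all. GGGCGG, the GC box, was in 62.2% of the collagen entries and in 35.7% of all promoters of this length. CCAAT was in 35.1% of the collagen entries and 37.4% of all, and the TATA box TATAAA in 13.5% and 13.6%. TGATGNAA, the core of the C/EBP-ATF response element, was in 0 of the 37 collagen entries and in 4.0% of all. Matches can share letters, as neighbouring GGGCGG matches do in Col8a2. The median share of G and C was 60.0% in the collagen entries and 52.7% in all. A match describes these letters only.

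Levels are log2 spot intensities set against the 75th percentile of each array, so that 0 is the level of that percentile and a difference of 1 is a 2-fold change. They compare samples for a gene, not genes with each other. Testing was limited to genes well above background on both arrays of 1 group or more, and a change was called at an adjusted p under 0.05. Of the 42 members, 21 were well above background on all 10 arrays and 8 on none. Of the members, 30 were tested in muscle and 22 in C2C12. Not tested anywhere were 12: the fibrillar Col27a1, the basement membrane chain Col4a3, the type VI chains Col6a4, Col6a5 and Col6a6, the fibril-associated Col9a3 and Col19a1, the transmembrane Col13a1, Col17a1 and Col25a1, the short chain Col10a1, and Col28a1. They stood at mean levels of -6.15 to -1.95, and no array had a saturated collagen spot.

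**Figure D1:**
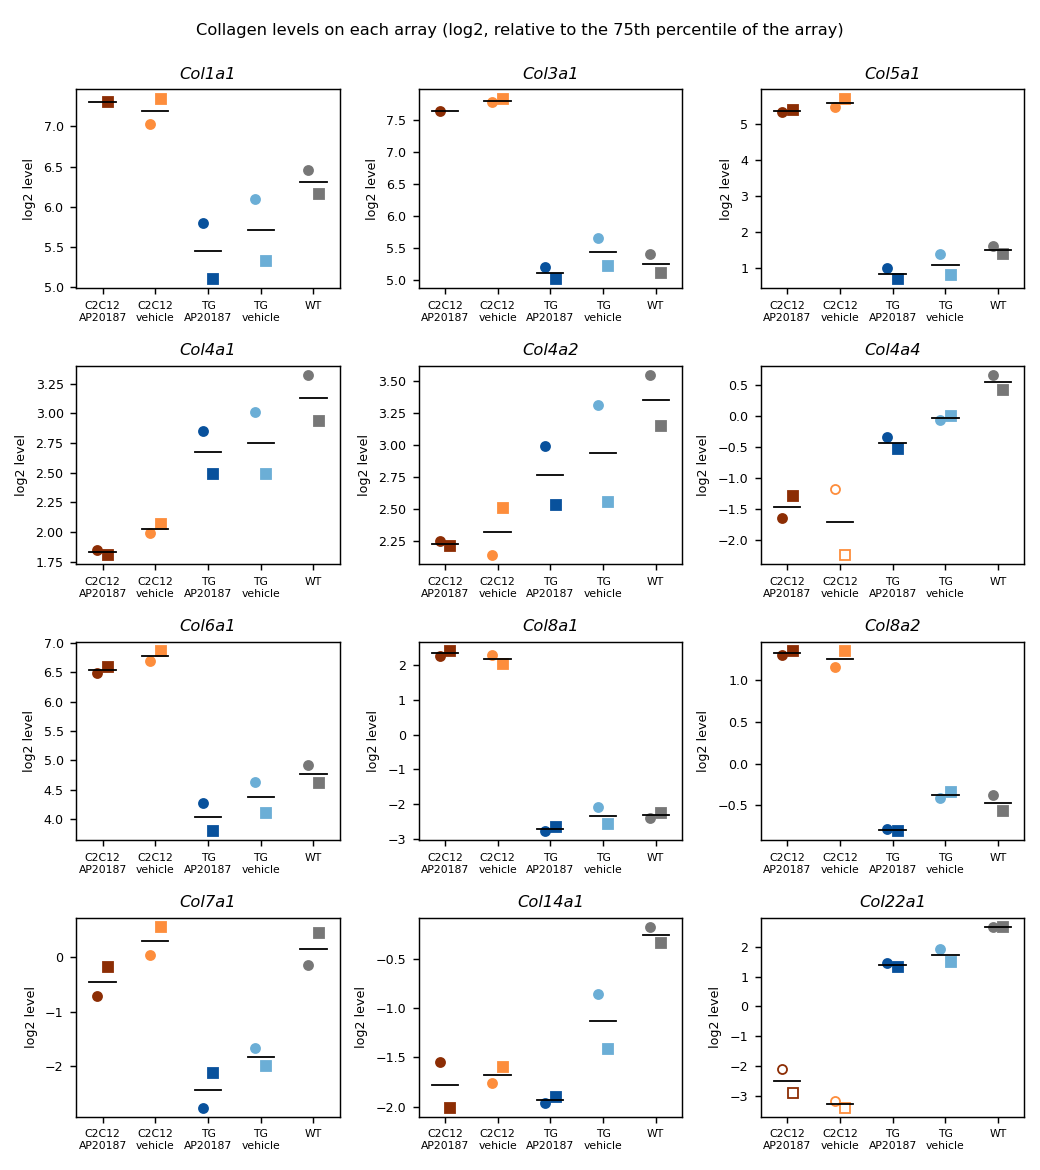
Level of 12 collagen genes on each array (vertical axis, log2 relative to the array's 75th percentile) in the 5 groups along the horizontal axis. Circles are replicate 1, squares replicate 2, bars group means, and open symbols mark groups where the probe was not well above background on both arrays; the vertical axes differ between genes and do not start at 0. Col5a1 and Col8a1 stood higher in C2C12 than on any muscle array, Col22a1 lower, and Col7a1 was lower on every transgenic muscle array than in wild type. A Col1a1 and a Col3a1 spot of C2C12 AP20187 were left out because of outlier marks.

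The first question was how 12 h of AP20187 changed collagen mRNA in transgenic muscle. No collagen was higher and 2 of the 30 tested were lower: Col14a1, a fibril-associated chain found on collagen fibrils of muscle and tendon, and Col8a2. Over all 13543 genes tested 29.3% changed, 14.3% higher and 15.0% lower, so that the share of collagens called (6.67%) was under that background. The log2 change was negative in 28 of the 30 collagens, against 60.1% of all genes, with a median of -0.331 for collagens and -0.112 for all genes. At an unadjusted p under 0.05 there were 7 of the 30 collagens, against 5872 of the 13543 genes. The median became -0.129 without vehicle replicate 1, -0.165 without AP20187 replicate 2 and -0.533 without vehicle replicate 2. Negative changes then numbered 21, 21 and 27 of 30, and the median of all genes was -0.111, -0.102 and -0.102.

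Col14a1 had levels of -1.96 and -1.90 in transgenic muscle after AP20187, against -0.85 and -1.41 after vehicle. Both AP20187 arrays lay below both vehicle arrays. The log2 change was -0.80 (SE 0.20), or 1.74-fold lower, with an adjusted p of 0.0234 by limma. It no longer passed without AP20187 replicate 1 (-0.77, adjusted p of 0.0727 by limma), without AP20187 replicate 2 (-0.83, 0.0566) or without vehicle replicate 1 (-0.52, 0.0913). A second Col14a1 probe, not well above background in C2C12, had a change of -0.57.

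Col8a2 had levels of -0.79 and -0.81 in transgenic muscle after AP20187, against -0.41 and -0.34 after vehicle. The groups did not overlap, and the arrays of each group lay close together. The log2 change was -0.42 (SE 0.13), 1.34-fold lower, with an adjusted p of 0.0484 by limma. The call was kept under 3 of 15 alternatives and lost without any one of the 6 muscle arrays, where the change ran between -0.46 and -0.39.

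Of the fibrillar chains, 10 were tested, 0 passed and all 10 had negative changes, with a median of -0.323. Col1a1 and Col1a2 encode the 2 chains of type I collagen, the main fibril collagen of muscle and tendon. Col1a1 had levels of 5.80 and 5.10 in transgenic muscle after AP20187, 6.10 and 5.33 after vehicle and 6.46 and 6.15 in wild type muscle. Col1a2 had levels of 7.31 and 6.53 in transgenic muscle after AP20187, 7.50 and 6.96 after vehicle and 7.66 and 7.42 in wild type muscle. In both genes the AP20187 and vehicle arrays overlapped (log2 changes -0.26 (SE 0.29) and -0.31 (SE 0.26)).

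Type III collagen, of which Col3a1 encodes the only chain, forms fine fibrils with type I. Col3a1 had levels of 5.20 and 5.01 in transgenic muscle after AP20187, 5.66 and 5.21 after vehicle and 5.40 and 5.11 in wild type muscle. Its change with AP20187 was -0.33 (SE 0.17). Type V collagen, with chains from Col5a1, Col5a2 and Col5a3, starts and limits the width of type I fibrils. Col5a1 had levels of 1.00 and 0.68 in transgenic muscle after AP20187, 1.38 and 0.80 after vehicle and 1.62 and 1.39 in wild type muscle, with the AP20187 and vehicle arrays overlapping and a change of -0.25 (SE 0.20). Col5a2 had levels of -1.52 and -1.71 in transgenic muscle after AP20187, -1.02 and -1.23 after vehicle and -1.39 and -1.56 in wild type muscle. Both AP20187 arrays of Col5a2 lay below both vehicle arrays, and its change of -0.50 (SE 0.17) had an adjusted p of 0.0611 by limma. Col5a3 (-0.45) and Col11a1 (-0.57), a chain of a minor fibril collagen, did not pass either.

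Of the basement membrane chains, 5 were tested and 0 passed, with a median of -0.173. Col4a1 had levels of 2.85 and 2.49 in transgenic muscle after AP20187, 3.01 and 2.49 after vehicle and 3.33 and 2.93 in wild type muscle. Col4a2, which shares the promoter printed above, had levels of 2.99 and 2.53 in transgenic muscle after AP20187, 3.32 and 2.56 after vehicle and 3.55 and 3.15 in wild type muscle. In both, replicate 1 was the higher array of each muscle group, and the AP20187 and vehicle arrays overlapped (changes -0.08 (SE 0.21) and -0.17 (SE 0.26)). Col4a4 and Col4a6, chains of more restricted networks, had changes of -0.40 and -0.47, and Col4a5 of -0.13.

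Of the other collagens, 15 were tested and 2 passed, Col14a1 and Col8a2. Col6a1 and Col6a2 encode chains of type VI collagen, which forms beaded filaments beside the fibre surface and is mutated in human myopathies. Col6a1 had levels of 4.27 and 3.79 in transgenic muscle after AP20187, 4.63 and 4.11 after vehicle and 4.93 and 4.61 in wild type muscle, and a change with AP20187 of -0.34 (SE 0.21). Col6a2 had levels of 1.74 and 1.27 in transgenic muscle after AP20187, 2.34 and 1.87 after vehicle and 2.62 and 2.26 in wild type muscle. The AP20187 arrays of Col6a2 were the lowest of the 6, and the change was -0.60 (SE 0.21; adjusted p of 0.0658 by limma). Col15a1, a multiplexin of the muscle basement membrane zone, had levels of -1.53 and -2.20 in transgenic muscle after AP20187, -1.51 and -1.87 after vehicle and -2.14 and -2.64 in wild type muscle, with overlapping AP20187 and vehicle arrays and a change of -0.18 (SE 0.29). The 2 positive changes were those of Col20a1 (0.26) and Col26a1 (0.35).

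**Figure D2:**
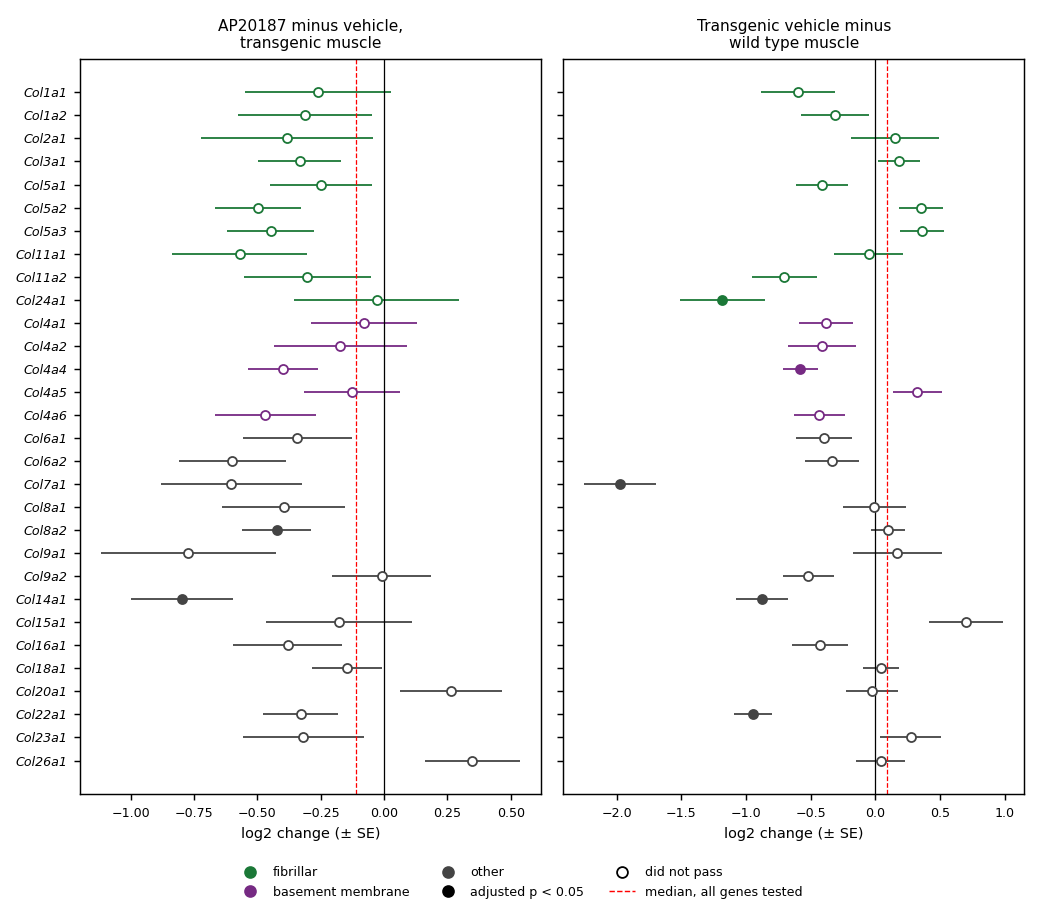
Log2 change with its standard error (horizontal axis) of the 30 collagens tested in muscle, for AP20187 minus vehicle in transgenic mice (left) and transgenic vehicle minus wild type (right). Colours give the class, filled symbols passed an adjusted p of 0.05, and the dashed line is the median of all genes tested (-0.112 and 0.086). The 2 panels share the vehicle arrays and have different axis ranges; 28 of 30 symbols lie left of 0 on the left panel and 19 on the right.

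Macrophage and tendon markers were lower on the same AP20187 arrays, while most markers of other cell types did not pass. Macrophage markers fell in 7 of 8 tested, 1 of the 9 measured was well above background on no array of either group, and the log2 of their summed level was 3.90 and 4.01 after AP20187, against 4.67 and 4.82 after vehicle. Tendon markers fell in 4 of 6, among them the tendon transcription factor gene Scx (-1.07), with sums of 5.378 and 4.996 after AP20187, against 5.74 and 5.65 after vehicle. Fibroblast markers fell in 2 of 12 (Mfap5 and Lum), with sums of 8.78 and 8.94 after AP20187, against 8.93 and 9.02 after vehicle. Endothelial markers passed in 0 of 10, with sums of 6.36 and 6.01 after AP20187 and 6.44 and 6.48 after vehicle. Pericyte and vascular smooth muscle markers passed in 0 of 10. Of 8 adipocyte markers Plin4 was higher (0.71) and the other 7 had negative changes that did not pass, with a list median of -0.542. Schwann cell markers fell in 2 of 8 and skeletal muscle fibre markers in 3 of 14, with medians of -0.382 and -0.265. Cartilage and erythroid markers passed in 0 of 3 and 0 of 4. Over all genes tested 14.3% were higher and 15.0% lower. Every fibroblast, tendon and endothelial marker was well above background on at least 1 array of both groups. In whole muscle, fewer cells of a type and less RNA per cell cannot be told apart, and the part of these markers in the collagen values was not tested.

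Replicates of a muscle group differed in collagen level as a set. Replicate 1 was above replicate 2 in 25 of 30 collagens after AP20187, 25 of 30 after vehicle and 23 of 30 in wild type. Over all genes tested, replicate 1 was the higher in 47.8%, 44.6% and 50.8% of them. The median difference between the vehicle replicates was 0.402 log2 units over the collagens, larger than the median change with AP20187. In C2C12 replicate 1 was the higher in 10 of 20 collagens after AP20187 and in 7 of 22 after vehicle. The tests given here did not use the replicate number, and the labels do not say what it marks. With it as a block, Col3a1, Col4a4, Col5a2, Col5a3, Col6a1 and Col6a2 also passed as lower after AP20187 in muscle. Over all 13543 genes the block also added calls, giving 2438 higher and 3155 lower, against 1937 and 2027 without it.

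The second comparison was transgenic vehicle muscle against wild type muscle. Here 0 collagens were higher and 5 of 30 lower: Col7a1, Col22a1, Col14a1, Col24a1 and Col4a4. Over all genes 38.3% changed, 25.7% higher and 12.6% lower, so that collagens had none of the higher calls and 16.7% lower. The change was negative in 19 of 30 collagens and in 43.4% of all genes, with medians of -0.325 and 0.086. The wild type mice were not injected, so that transgene, injection and slide cannot be told apart. The collagen median was -0.072 without transgenic vehicle replicate 2, -0.169 without wild type replicate 1, and -0.538 with the percentile taken over probes detected on all arrays, where the median of all genes moved to -0.127.

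Col7a1 had levels of -1.67 and -1.99 in transgenic vehicle muscle, against -0.15 and 0.44 in wild type muscle. Both transgenic arrays lay below both wild type arrays. The change was -1.97 (SE 0.28), 3.93-fold lower, with an adjusted p of 0.00152 by limma. It shrank to -1.19 with normexp background correction. After AP20187, transgenic muscle had Col7a1 levels of -2.75 and -2.12.

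Col22a1, a fibril-associated chain found at the junction of muscle and tendon, had levels of 1.93 and 1.50 in transgenic vehicle muscle, against 2.67 and 2.66 in wild type muscle. The wild type arrays were alike and both above the transgenic ones, with a difference of -0.95 (SE 0.15), 1.93-fold lower (adjusted p of 0.00235 by limma). Col7a1 and Col22a1 passed under all 15 alternatives run for this comparison.

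Col14a1 had levels of -0.85 and -1.41 in transgenic vehicle muscle, against -0.17 and -0.34 in wild type muscle. Its change was -0.88 (SE 0.20), which passed at an adjusted p of 0.0120 by limma. The groups did not overlap. Its second probe had a change of 0.05, and with the mean over probes the gene stood at -0.41 and did not pass. It did not pass without transgenic vehicle replicate 2 (-0.60) or wild type replicate 1 (-0.80) either.

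Col24a1, a fibrillar chain best known from bone, had levels of -3.56 and -4.16 in transgenic vehicle muscle, against -2.78 and -2.57 in wild type muscle. It was not well above background in transgenic muscle, so that it was at least 2.04-fold lower there (adjusted p of 0.0237 by limma; measured means -3.86 in transgenic vehicle and -2.68 in wild type). That bound holds for the main processing only, and over the alternatives the smallest log2 fall of Col24a1 was -0.28. It passed the filter through wild type alone. The call was lost without transgenic vehicle replicate 2 (adjusted p of 0.0963 by limma) or without wild type replicate 1 (0.0815) or 2 (0.126). Col4a4 had levels of -0.07 and -0.01 in transgenic vehicle muscle, against 0.66 and 0.41 in wild type muscle, with no overlap, and differed by -0.58 (SE 0.14; adjusted p of 0.0138 by limma). It lost the call without either transgenic vehicle array (-0.55 and -0.61), without wild type replicate 1 (-0.46) and with the mean over its 3 probes (-0.29), of which only 1 was well above background on more than 1 array.

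The chains of types I, III, IV (Col4a1 and Col4a2) and VI did not pass in this comparison, where the replicate number was not used. With that number as a block, Col1a1, Col4a1, Col4a2, Col6a1 and Col6a2 passed as lower, though the labels do not say what it marks. Col15a1 and Col5a3 then passed as higher. Over all 13543 genes the block gave 4199 higher and 2229 lower, against 3478 and 1706 without it. Col1a1 had a change of -0.60 (SE 0.29), Col1a2 of -0.31, Col3a1 of 0.18, Col4a1 of -0.38, Col4a2 of -0.41, Col6a1 of -0.40 and Col6a2 of -0.34. The positive end was Col15a1 at 0.70 (SE 0.29), with an adjusted p of 0.0908 by limma. By class, 1 of 10 fibrillar (Col24a1, of which only a bound is known), 1 of 5 basement membrane and 3 of 15 other collagens were lower. Tendon markers were also lower here in 4 of 6 (sums of 5.74 and 5.65 in transgenic vehicle, against 6.49 and 6.40 in wild type). Fibroblast markers fell in 2 of 12, Pdgfra and Gsn (sums of 8.93 and 9.02, against 9.21 and 9.21). Among all genes tested, 12.6% passed as lower and 25.7% as higher. Pericyte and vascular smooth muscle markers had 4 rises and 1 fall among 10, adipocyte markers 2 and 1 among 8. Endothelial markers had 1 rise and 0 falls among 10, skeletal muscle fibre markers 1 and 3 among 14. Cartilage markers had 1 fall among 3, and macrophage, Schwann cell and erythroid markers had 0 calls. The part of these markers in the collagen values was not tested.

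Genes that make, process, bind or degrade collagen were described beside the chains, from lists chosen with earlier results of these data known. Of 33 tested synthesis and processing genes, 0 were higher and 11 lower after AP20187, with a median of -0.276. Over all genes tested 14.3% were higher and 15.0% lower, with a median of -0.112. Those with the smallest p were Fkbp7, an endoplasmic reticulum prolyl isomerase (-0.74, SE 0.12), Sparc, a collagen-binding secreted protein (-0.52, SE 0.09), Adamts2, which cuts the amino end of procollagen (at least 2.95-fold lower), and Pcolce2, an enhancer of procollagen cutting (-0.51, SE 0.10). Their adjusted p ran between 0.00475 and 0.00987 by limma.

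In transgenic vehicle against wild type muscle the same list of 33 had 9 genes higher and 3 lower, against 25.7% and 12.6% of all genes. Higher were Fkbp7 (1.43, SE 0.12), the hydroxylase subunit gene P4hb (0.78, SE 0.09), the collagen chaperone gene Serpinh1 (0.80, SE 0.10) and P3h4 (0.77, SE 0.11), part of the lysine hydroxylating complex. Lower were the procollagen proteinase gene Bmp1 (-0.54), Mia3, which exports procollagen from the endoplasmic reticulum (-0.37), and Pcolce2 (-0.30). The 2 comparisons share the vehicle arrays, so that opposite signs, as for Fkbp7, are not independent.

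**Figure D3:**
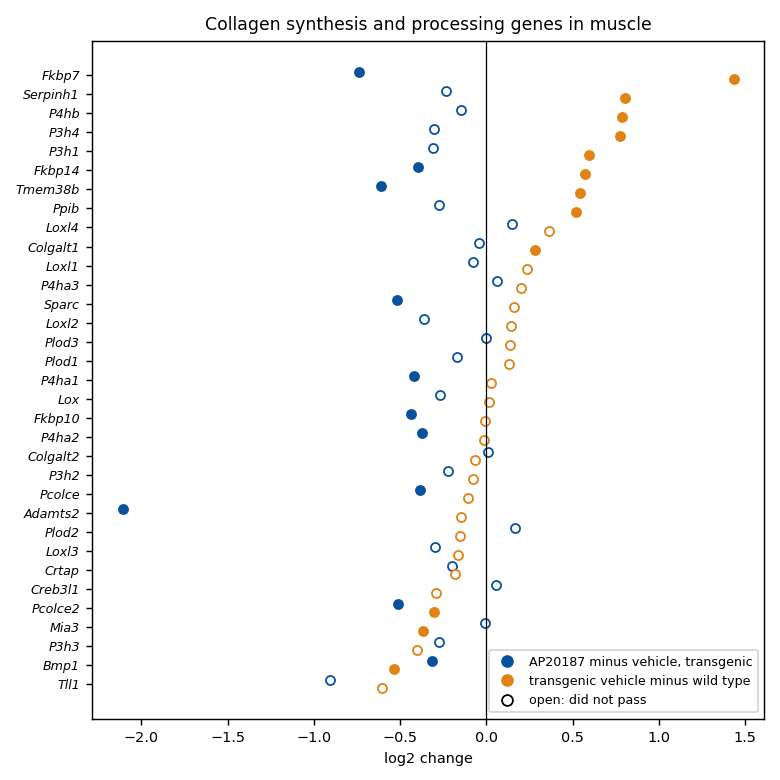
Log2 change (horizontal axis) of the 33 tested collagen synthesis and processing genes in muscle, ordered by transgenic vehicle minus wild type (orange), with AP20187 minus vehicle (blue). Filled symbols passed an adjusted p of 0.05. Fkbp7 is highest in orange (1.43) and Adamts2 lowest in blue, where its AP20187 arrays were not well above background and the fall is only bounded; both comparisons use the same vehicle arrays.

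Collagen degradation genes were higher in 1 and lower in 5 of 15 after AP20187: the protease gene Ctsl was higher (0.71, SE 0.10), and Ctsb (-0.47), Ctsk (-0.58) and the inhibitor genes Timp1 (-0.92), Timp2 (-0.59) and Timp4 (-0.67) lower, of which Timp1 was named after its value was seen. In transgenic vehicle against wild type muscle Ctsl (2.12, SE 0.10) and Timp1 (0.74) were higher and Timp2 (-0.90) and the membrane metalloproteinase gene Mmp15 (-0.59) lower. Collagen receptors had 1 of 10 higher after AP20187, the kinase receptor gene Ddr1 (0.62, SE 0.15). Against wild type, Lair1 (-0.86) and Ddr2 (-0.30) were lower in transgenic vehicle muscle. The shares over all genes were 14.3% higher and 15.0% lower after AP20187, and 25.7% higher and 12.6% lower against wild type.

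Of 21 proteins that bind collagen in the matrix, 4 were lower and 0 higher after AP20187: the small proteoglycan genes Kera (-0.57), Lum (-0.45) and Ogn (-0.53), and fibronectin, Fn1 (-0.29). This list shares genes with the marker lists, so that their counts are not independent. Kera and Thbs4 are also tendon markers, Lum a fibroblast marker and Comp a cartilage marker. Against wild type 7 were lower in transgenic vehicle muscle, among them Thbs4 (-1.07), Tnxb (-0.96), Comp (-0.82) and Fn1 (-0.64). Of the TGF-beta pathway, a known inducer of collagen genes, 3 of 21 were higher after AP20187, the inhibitor gene Smad7 (1.72, SE 0.16), the receptor gene Tgfbr1 (0.74) and Smad2 (0.42), and 1 was lower, Tgfb3 (-0.30). Against wild type 10 of 21 were lower in transgenic vehicle muscle, among them Smad3 (-1.34), Ccn2 (-1.48), Skil (-0.91) and Smad7 (-0.88), and Smad6 was higher (0.53). Beside these counts, 14.3% of all genes were higher and 15.0% lower after AP20187, and 25.7% and 12.6% against wild type.

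In C2C12 cells AP20187 changed no collagen past the threshold. Of 22 tested, 0 were higher and 0 lower by limma, against 0.482% of all 11409 genes (0.316% higher and 0.167% lower), and 2 of the 22 had an unadjusted p under 0.05, against 1616 of the 11409. The median of the collagens was -0.149 and that of all genes -0.057. The AP20187 arrays lay in 1 row of the slide and the vehicle arrays in another, and row cannot be told apart from treatment. The collagen median turned to 0.146 after quantile normalization, where the median of all genes moved to 0.162.

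The lowest values were those of Col7a1, with levels of -0.72 and -0.19 in C2C12 cells after AP20187, against 0.04 and 0.55 after vehicle, and Col6a2, with levels of 3.42 and 3.20 in C2C12 cells after AP20187, against 3.89 and 3.77 after vehicle. Neither gene's groups overlapped, nor did those of Col1a2, Col4a1, Col5a1 and Col6a1, among others. The changes of Col7a1 and Col6a2 were -0.75 (SE 0.22) and -0.52 (SE 0.13), with adjusted p of 0.184 and 0.105 by limma. Col7a1 passed without AP20187 replicate 2.

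The main fibrillar chains did not pass the test in C2C12. Col1a2 had levels of 8.58 and 8.51 in C2C12 cells after AP20187, against 8.66 and 8.91 after vehicle. Col1a1 had 7.30 on the AP20187 array kept, against 7.03 and 7.34 after vehicle, and Col3a1 had 7.63 on the one kept, against 7.77 and 7.83; the other array of each carried an outlier mark and its fit rests on 1 AP20187 array. Col5a1 had levels of 5.35 and 5.41 in C2C12 cells after AP20187, against 5.48 and 5.72 after vehicle. Col5a2 had levels of 2.91 and 2.97 in C2C12 cells after AP20187, against 2.97 and 2.77 after vehicle. Changes over these 5 chains ran between -0.24 and 0.11 with standard errors of 0.13 to 0.18.

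Basement membrane and type VI chains likewise did not pass. Col4a1 had levels of 1.85 and 1.80 in C2C12 cells after AP20187, against 1.99 and 2.06 after vehicle. Col4a2 had levels of 2.25 and 2.21 in C2C12 cells after AP20187, against 2.14 and 2.51 after vehicle. Both were well above background on all C2C12 arrays, with changes of -0.20 (SE 0.12) and -0.09 (SE 0.14). Col6a1 had levels of 6.49 and 6.60 in C2C12 cells after AP20187, against 6.70 and 6.87 after vehicle, both AP20187 arrays being below both vehicle arrays, and a change of -0.24 (SE 0.13). Col15a1 was well above background on no C2C12 array (-2.86 and -1.98 in C2C12 cells after AP20187, against -2.95 and -2.33 after vehicle) and was not tested. Of the synthesis, degradation, receptor, matrix protein and TGF-beta lists, 0 of 25, 0 of 10, 0 of 8, 0 of 13 and 0 of 20 genes changed. Adipocyte markers rose in 4 of 7 in the same arrays, against 0.316% of all genes. Their log2 sums were 3.59 and 3.06 after AP20187, against 0.35 and 0.12 after vehicle. Only Plin4 was well above background on both vehicle arrays, and 3 of the 8 measured were on neither. The other tested markers passed the filter through the AP20187 group alone, and the vehicle sums lie near the floor.

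The difference between the AP20187 change in muscle and that in C2C12 was tested in 1 fit of all 10 arrays. It passed for 0 of 30 collagens in either direction by limma, against 12.0% of all genes (7.98% higher in muscle and 4.02% lower). Of the 30, only 22 were tested in C2C12, and for the other 8 (Col2a1, Col4a6, Col9a1, Col15a1, Col20a1, Col22a1, Col24a1 and Col26a1) the C2C12 part of the difference comes from probes that were not well above background on both arrays of either C2C12 group. At an unadjusted p under 0.05 there were 4 collagens, against 4071 of the 14094 genes: Col5a2 and Col8a2, and Col22a1 and Col9a1 from among those 8. The difference was negative in 27 of 30 collagens and in 54.9% of all genes, with medians of -0.341 and -0.064. The collagen median became -0.156 without transgenic vehicle replicate 1, -0.168 without transgenic AP20187 replicate 2 and -0.165 without C2C12 vehicle replicate 1. Synthesis genes that passed were all lower in muscle, 4 of 28: Fkbp7 (-0.79), Sparc (-0.49), Adamts2 and Adamts14. The last 2 were well above background on no transgenic AP20187 array, so that no size is given for them.

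C2C12 vehicle cells and transgenic vehicle muscle differed widely in collagens. Of 30 tested, 15 were higher in C2C12, 8 lower and 7 did not pass, against 78.7% of all 14292 genes (38.5% higher and 40.2% lower). Fibrillar chains were higher in 7 of 10 and lower in 1. Basement membrane chains were higher in 1 of 5 and lower in 3. The other collagens were higher in 7 of 15 and lower in 4. The share of collagens called in either direction, 76.7%, was close to the background.

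The largest rises were in Col5a1 and Col8a1. Col5a1 had levels of 5.48 and 5.72 in C2C12 vehicle cells, against 1.38 and 0.80 in transgenic vehicle muscle. Its change was 4.51 (SE 0.18), 22.8-fold. Col8a1, a short chain network collagen of vessel walls and the cornea, had levels of 2.30 and 2.04 in C2C12 vehicle cells, against -2.09 and -2.59 in transgenic vehicle muscle, a change of 4.51 (SE 0.20), 22.7-fold. Col5a2 had levels of 2.97 and 2.77 in C2C12 vehicle cells, against -1.02 and -1.23 in transgenic vehicle muscle and a change of 3.99 (SE 0.15), 15.9-fold. In all 3 genes each C2C12 array was above each muscle array.

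The type I and III chains were higher in C2C12 as well. Col1a1 had levels of 7.03 and 7.34 in C2C12 vehicle cells, against 6.10 and 5.33 in transgenic vehicle muscle. Col1a2 had levels of 8.66 and 8.91 in C2C12 vehicle cells, against 7.50 and 6.96 in transgenic vehicle muscle. Col3a1 had levels of 7.77 and 7.83 in C2C12 vehicle cells, against 5.66 and 5.21 in transgenic vehicle muscle. Their changes were 1.48 (SE 0.27), 1.56 (SE 0.24) and 2.36 (SE 0.16), with adjusted p of 0.000610, 0.000108 and 2.65e-07 by limma. Col11a1, a chain of minor fibrils, stood at 0.17 and -0.08 in C2C12 vehicle cells, against -2.56 and -2.02 in transgenic vehicle muscle, with a change of 2.34 (SE 0.25).

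Type VI chains were higher in C2C12 too. Col6a1 had levels of 6.70 and 6.87 in C2C12 vehicle cells, against 4.63 and 4.11 in transgenic vehicle muscle. Col6a2 had levels of 3.89 and 3.77 in C2C12 vehicle cells, against 2.34 and 1.87 in transgenic vehicle muscle. The changes were 2.42 (SE 0.19) and 1.72 (SE 0.19). Col16a1, a fibril-associated chain, stood at 3.89 and 3.98 in C2C12 vehicle cells, against 1.84 and 1.54 in transgenic vehicle muscle (2.24, SE 0.19), and Col7a1 at 0.04 and 0.55 in C2C12 vehicle cells, against -1.67 and -1.99 in transgenic vehicle muscle (2.12, SE 0.30). The remaining rises were Col5a3 (2.05), Col8a2 (1.63), Col4a5 (0.77) and Col18a1 (0.41), which holds the endostatin fragment. Col4a5 stood at -0.36 and -0.64 in C2C12 vehicle cells, against -1.21 and -1.33 in transgenic vehicle muscle. The Col18a1 call was lost without C2C12 vehicle replicate 1 (0.32) or transgenic vehicle replicate 2 (0.25).

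The falls were led by Col22a1, with levels of -3.16 and -3.39 in C2C12 vehicle cells, against 1.93 and 1.50 in transgenic vehicle muscle. It was not well above background in C2C12, so that it was at least 21.7-fold lower there (adjusted p of 8.83e-09 by limma). Likewise, Col26a1 was at least 5.23-fold lower, the cartilage fibril chain Col2a1 at least 2.33-fold, the fibril-associated Col20a1 at least 2.08-fold and Col15a1 at least 1.90-fold. These bounds hold for the main processing only. Over the alternatives the smallest log2 falls were -2.89 for Col22a1, -1.49 for Col26a1, -0.91 for Col2a1 and -0.46 for Col20a1. Col26a1 had levels of -4.15 and -4.02 in C2C12 vehicle cells, against -0.30 and -0.48 in transgenic vehicle muscle. Col2a1 had levels of -5.06 and -4.41 in C2C12 vehicle cells, against -1.22 and -1.90 in transgenic vehicle muscle. Col20a1 had levels of -2.98 and -4.27 in C2C12 vehicle cells, against -1.38 and -1.78 in transgenic vehicle muscle. Col22a1, Col26a1, Col2a1, Col20a1 and Col15a1 were well above background on no C2C12 array and passed the filter through muscle alone. Their tests therefore set muscle signal against C2C12 values at the floor. Col15a1 stood at -2.95 and -2.33 in C2C12 vehicle cells, against -1.51 and -1.87 in transgenic vehicle muscle, and its call was lost without C2C12 vehicle replicate 1 (-0.64) or either transgenic vehicle array (-0.77 and -1.13), with normexp (-0.23), and with the percentile over detected probes (-0.73).

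Of the basement membrane chains, Col4a1, Col4a2 and Col4a4 were lower in C2C12. Col4a1 had levels of 1.99 and 2.06 in C2C12 vehicle cells, against 3.01 and 2.49 in transgenic vehicle muscle, and differed by -0.72 (SE 0.19; adjusted p of 0.00409 by limma). Col4a2 had levels of 2.14 and 2.51 in C2C12 vehicle cells, against 3.32 and 2.56 in transgenic vehicle muscle and a change of -0.61 (SE 0.24). Both muscle arrays of Col4a1 were above both C2C12 arrays, as were those of Col4a2. Without transgenic vehicle replicate 1 Col4a1 stood at -0.46 and Col4a2 at -0.23, where Col4a2 did not pass, nor did it without C2C12 vehicle replicate 1 (-0.43), and without transgenic vehicle replicate 2 it was -0.99. The Col4a2 call was also lost with the percentile over detected probes (-0.39), after quantile normalization (-0.40) and in the authors' deposited table (-0.63, adjusted p of 0.0695 by limma). Col4a4 had levels of -1.18 and -2.24 in C2C12 vehicle cells, against -0.07 and -0.01 in transgenic vehicle muscle, well above background on 1 of the 2 C2C12 arrays, and a change of -1.67 (SE 0.29). With the mean over its probes the change of Col4a4 turned to 0.03.

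**Figure D4:**
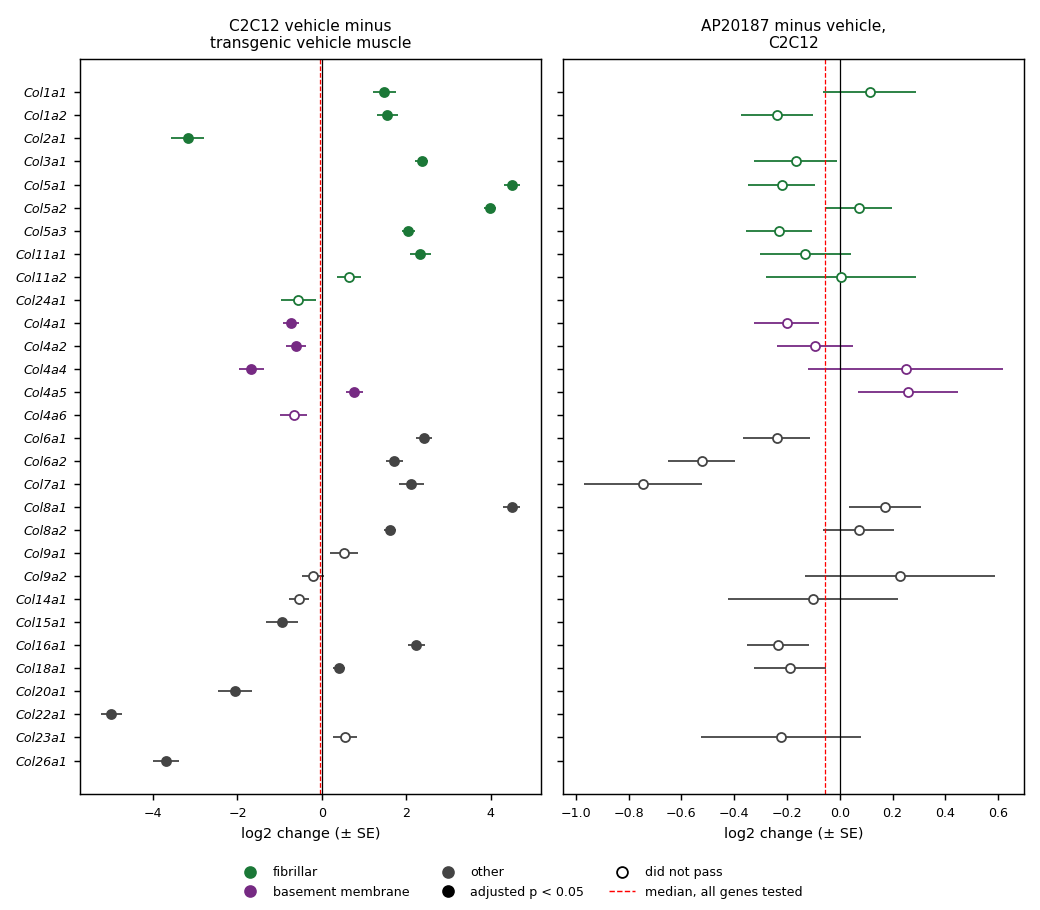
Log2 change with its standard error (horizontal axis) for C2C12 vehicle minus transgenic vehicle muscle (left, 30 collagens) and AP20187 minus vehicle in C2C12 (right, 22 collagens). Colours give the class, filled symbols passed an adjusted p of 0.05, and the dashed line is the median of all genes tested. On the left 15 filled symbols lie right of 0 and 8 left of it, and Col22a1, Col26a1, Col2a1, Col20a1 and Col15a1 are bounded only; on the right 0 are filled. The axis ranges differ.

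Synthesis and processing genes were higher in C2C12 in 26 of 34 and lower in 5, against 38.5% and 40.2% of all genes. The smallest p were those of Fkbp10, a procollagen chaperone (4.37, SE 0.10), Bmp1 (3.13, SE 0.10), the lysyl hydroxylase gene Plod2 (5.77, SE 0.20) and P3h4 (3.66, SE 0.11). Lower were Colgalt2 (at least 1.89-fold), Pcolce2 (-0.46), P3h2 (-1.65) and Loxl2 (-0.46), among others. Receptors were higher in 7 of 10, led by the collagen integrin gene Itga11 (3.24) and Cd44 (3.31). Matrix proteins were split, with 8 higher (Fn1 at 4.95, Nid2 at 4.42) and 10 lower (Lum at least 69.3-fold, Thbs4 at least 149-fold) of 21. Fibroblast markers were lower in C2C12 in 12 of 12 and endothelial markers in 10 of 10, with 2 and 6 of them well above background on no C2C12 vehicle array. Pericyte and vascular smooth muscle markers were higher in C2C12 in 6 of 10 and lower in 4, with log2 sums of 10.04 and 10.23 in C2C12 vehicle cells, against 6.69 and 6.64 in transgenic vehicle muscle. The part of these markers in the collagen values was not tested, and material and cell makeup cannot be told apart here.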

How the data were processed

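Total RNA was measured on single-colour Cy3 arrays in 10 samples, from 150 ng of RNA each per the labels' protocols. The deposited scanner files hold, per spot, an intensity on a linear scale that Agilent Feature Extraction 10.7.1.1 made by background subtraction, per the file headers. The authors' deposited log2 table of the same arrays served as an alternative. Its differences between arrays follow the scanner values in scale and direction (r of 0.99985 or more), and the baseline it was centred on stays unknown. Its column medians were 0.80 and 0.78 in C2C12 AP20187, 0.34 and 0.70 in C2C12 vehicle, -0.37 and -0.58 in transgenic AP20187, -0.42 and -0.35 in transgenic vehicle, and -0.46 and -0.45 in wild type.

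Each array had 59305 gene spots after 3671 control spots were removed. Spots with an outlier mark (0.160% to 2.37% per array) were left out of the values, and spots of a probe were averaged. The intensity was taken as log2 minus the 75th percentile of the array over all gene spots. RefSeq accessions gave symbols for 26056 of 55681 probes through a GRCm38.p6 table. A gene with several probes was represented by the brightest, preferring probes with a value on every array.

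Each fit was made by limma 3.58.1 under R 4.3.3 with lmFit and a trended eBayes and Benjamini-Hochberg adjustment over all genes tested, and calls at 0.05. The 6 muscle arrays, the 4 C2C12 arrays and all 10 arrays formed the 3 fits. The procedure was tested on simulated data. For a probe well above background on no array of a group, the fold is a bound: the mean of the bright group against the higher, per array, of the dim probe's own signal and the lowest signal well above background. Such a bound carries no sampling error and holds for the main processing only. Alternatives were normexp with an offset of 50, quantile normalization, the percentile over detected probes, no filter, the mean over probes, kept outlier spots, the authors' table, a replicate block, other arrays in the fit and each array left out. The mean signal column was not used here, so normexp took the median signal. Named with values per array are 10 chains fixed by name and, per comparison and class, up to 4 called members in each direction. Of other lists up to 4 called genes in each direction are named, by smallest p, and not all are shown. The members and lists were chosen with earlier results of these data known.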

Additional observations from a re-analysis of the deposited data

How the results depend on the processing

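Over single collagens, 1079 values kept their side of the threshold, 40 lost and 19 gained a call. Among those that did not pass, some changed sign, such as Col4a2 after AP20187 in transgenic muscle (-0.55 to 0.21). A called change reversed in 1, Col4a4 in C2C12 vehicle against transgenic vehicle muscle, to 0.0263 with the mean over probes. Of those probes 1 was well above background on no array and 1 on 1 array. In transgenic muscle after AP20187 the 2 lower calls became 1 (Col14a1) with the percentile over detected probes, the authors' table, the mean over probes, quantile normalization or the 4 arrays compared alone, and 0 without a filter on dim probes. For transgenic vehicle against wild type the 5 lower calls became 8 with the percentile over detected probes and 3 with the mean over probes. In C2C12 after AP20187 there was 1 higher call with quantile normalization (Col1a1) and 1 lower with no filter and with normexp (Col6a2). The difference between materials gained 4 lower calls with normexp and 2 with quantile normalization. The cause of these shifts was not tested. Leaving out each array gave 0 to 2 lower collagens after AP20187 in muscle, 2 to 7 for transgenic vehicle against wild type, 0 to 1 in C2C12, 0 to 1 for the difference between materials, and 14 to 16 higher and 6 to 10 lower in C2C12 vehicle against muscle. With 1 array left in a group, it is assumed to vary like the others.

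Samples share only a replicate number, whose deviations correlated at r of 0.348, 0.194 and 0.311 between the muscle groups and 0.022 in C2C12 (9464 genes). With the replicate block, 8 of 30 collagens were lower after AP20187 in muscle, where 2438 of all 13543 genes were higher and 3155 lower. The 6 gained were Col3a1, Col4a4, Col5a2, Col5a3, Col6a1 and Col6a2. In transgenic vehicle against wild type 13 collagens were lower and 2 higher (Col15a1 and Col5a3), with 4199 genes higher and 2229 lower. The lower calls gained were Col1a1, Col4a1, Col4a2, Col5a1, Col6a1, Col6a2, Col11a2 and Col16a1. In the difference between materials 1 was lower, Col22a1, which was well above background on no C2C12 array, with 1177 genes higher and 605 lower. In C2C12 vehicle against muscle Col15a1 lost its call (adjusted p of 0.0510 by limma). A slide or scan block could not be fitted, since each group lies within 1 slide.

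Over all genes, the higher and lower calls after AP20187 in muscle were 1937 and 2027, and 2228 and 1416 with the percentile over detected probes. For transgenic vehicle against wild type they were 3478 and 1706, 2006 and 3108 with that percentile, and 2479 and 2346 after quantile normalization. In C2C12 they were 36 and 19, 1063 and 38 after quantile normalization, and 162 and 198 with normexp. For the difference between materials they were 1125 and 566, 667 and 1716 after quantile normalization, and 1622 and 1557 with normexp. Leaving out arrays gave 1802 to 3347, 3116 to 5250, 26 to 306 and 856 to 1651 calls in these 4 comparisons. In C2C12 the 55 calls became 115 with all 10 arrays in the fit, 21 with the authors' table, 126 with the mean over probes, 137 with no filter and 106 with the replicate block.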
